A study of Mus musculus with 6 samples.

Results

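Laminins, integrins and adhesive glycoproteins are 39 genes that were selected by symbol from the 20637 genes listed in each deposited table of whole mouse uterus, and all 39 were found in every table. They comprise 5 laminin alpha chains, 5 laminin beta and gamma chains, 4 nidogens and basement membrane proteoglycans, 5 laminin receptors, 4 integrin alpha subunits that bind collagen, 5 that bind fibronectin, vitronectin or tenascin, 5 further integrin beta subunits and 6 adhesive or matricellular glycoproteins. Poly(A) RNA was sequenced from 3 floxed control uteri (Nat10 f/f) and 3 Nat10-deleted uteri (Nat10 d/d), all from female mice killed on postnatal day 21. The Nat10 product is the enzyme that writes N4-acetylcytidine marks on RNA. The question put to these genes was which of them differed in level between the deleted and the floxed uterus. The labels give no strain, no Cre driver, no deleted exons and no cell type in which the deletion takes place. No wild-type group was analysed, so every animal carried either the floxed or the deleted allele. The labels number replicates 1 to 3 within each genotype and name no litter or batch, and p-values below measure the spread between these libraries.

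Laminins are trimers of an alpha, a beta and a gamma chain that assemble on cell surfaces and form the laminin network of basement membranes. Nidogens and perlecan tie this network to collagen IV, while integrins, which are pairs of an alpha and a beta subunit, and dystroglycan anchor cells to it. In the uterus such sheets lie under the luminal and glandular epithelium and around smooth muscle cells and blood vessels. Fibronectin, tenascin C, periostin, SPARC and the thrombospondins lie in the matrix between cells and act as ligands or modulators of the same receptors.

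Values are FPKM, fragment counts scaled by transcript length and by library size, so levels of genes of different length can be set side by side. Summed values per library ranged from 500764 to 549263 FPKM, and 15431 to 15680 genes were above 0. Absolute depth is not known from FPKM, and steps between low values gave relative depths that differed by at most 1.26 times between libraries. Nat10 itself stood at 13.2, 16.4 and 9.95 FPKM in f/f replicates 1, 2 and 3 and at 5.57, 5.23 and 5.53 FPKM in the d/d replicates. Every d/d library lay below every f/f library, and the d/d mean was 41.4% of control (limma log2 change -1.11, SE 0.17, adjusted p = 0.669). The residual Nat10 RNA of a whole organ does not say which cells kept it. Defining markers of uterine epithelium, stroma and smooth muscle were above 0 in all 6 libraries. Oviduct and ciliated cell markers were present too, with summed levels of 250.5 to 274.7 FPKM in f/f and 145.4 to 294.4 FPKM in d/d libraries. Growth markers varied widely between libraries. The median of 11 proliferation genes, in log2 units from the control mean, was 0.62, -0.82 and 0.19 in f/f replicates 1, 2 and 3 and -0.93, 1.80 and -1.54 in the d/d replicates. All 3 d/d medians lay outside the control range, replicate 1 by little, replicate 2 far above and replicate 3 far below.

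In control uteri the most abundant members were Sparc, Itgb1, Fn1, Nid1 and Postn, the 5 genes with a mean of at least 100 FPKM. A further 22 members lay between 10 and 100 FPKM, and 10 lay between 1 and 10 FPKM. Lama1, a laminin alpha chain of early embryonic basement membranes, and Itgb6, the epithelial partner of the alpha v subunit, stayed below 1 FPKM in the controls and did not reach the filter of 1 FPKM in at least 3 libraries. Lama1 ranged from 0.229 to 0.321 FPKM in f/f and from 0.255 to 0.486 FPKM in d/d libraries, and Itgb6 ranged from 0.764 to 0.955 and from 0.56 to 1.41 FPKM. Both ranges overlapped. The other 37 members entered the fit, and Itga2 and Itga11 did so without reaching 1 FPKM in all 6 libraries.

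Most members were somewhat lower in deleted than in floxed uteri, and none passed the test. Mean log2(FPKM + 1) was lower in d/d for 32 of 37 tested members (86.5%), against 43.4% of all 12640 tested genes, and mean FPKM was lower for 31. The median log2 change of the members was -0.20, on that scale, which understates the change of low genes, against 0.03 for all tested genes, and single members ranged from -0.83 for Fn1 to 0.22 for Agrn. By limma with Benjamini-Hochberg adjustment over all tested genes, 0 members had an adjusted p under 0.05. The share of all genes called was 0.0%, with the smallest adjusted p among members at 0.923. An unadjusted p under 0.05 was reached by 10 of 37 members (27.0%), all lower in d/d, against 4.98% of all tested genes in either direction and 2.3% lower. These 10 were Fn1, Hspg2, Itga1, Itga7, Itga9, Itga11, Itgb3, Lama4, Nid1 and Nid2. In 8 of 37 members (21.6%) all d/d libraries lay below all f/f libraries, against 10.7% of all tested genes separated in either direction and 4.6% separated downward. No member was separated upward. Members share cells and libraries and are not independent of each other, so these shares describe the list and do not test it.

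The calls depended on how the libraries were weighted. With array quality weights, in which limma gave d/d replicate 1 a weight of 3.74 and d/d replicate 2 one of 0.224, 6 members had an adjusted p under 0.05, all lower in d/d, against 2.5% of all tested genes. They were Lama4, Nid2, Hspg2, Itga1, Itgb3 and Fn1, with log2 changes from -1.23 for Fn1 to -0.50 for Itga1, and 21 of 37 members against 29.5% of all genes had an unadjusted p under 0.05. Leaving out d/d replicate 2 without weights gave 0 called members and 0.0949% of genes called, with 13 members at an unadjusted p under 0.05 (13.7% of all genes) and 15 separated (31.8%). Without d/d replicate 1 the counts were 5 (2.78%) and 9 (15%), and without d/d replicate 3 they were 11 (11.1%) and 20 (30.2%). Under quantile normalization Dag1 was no longer separated.

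**Figure D1:**
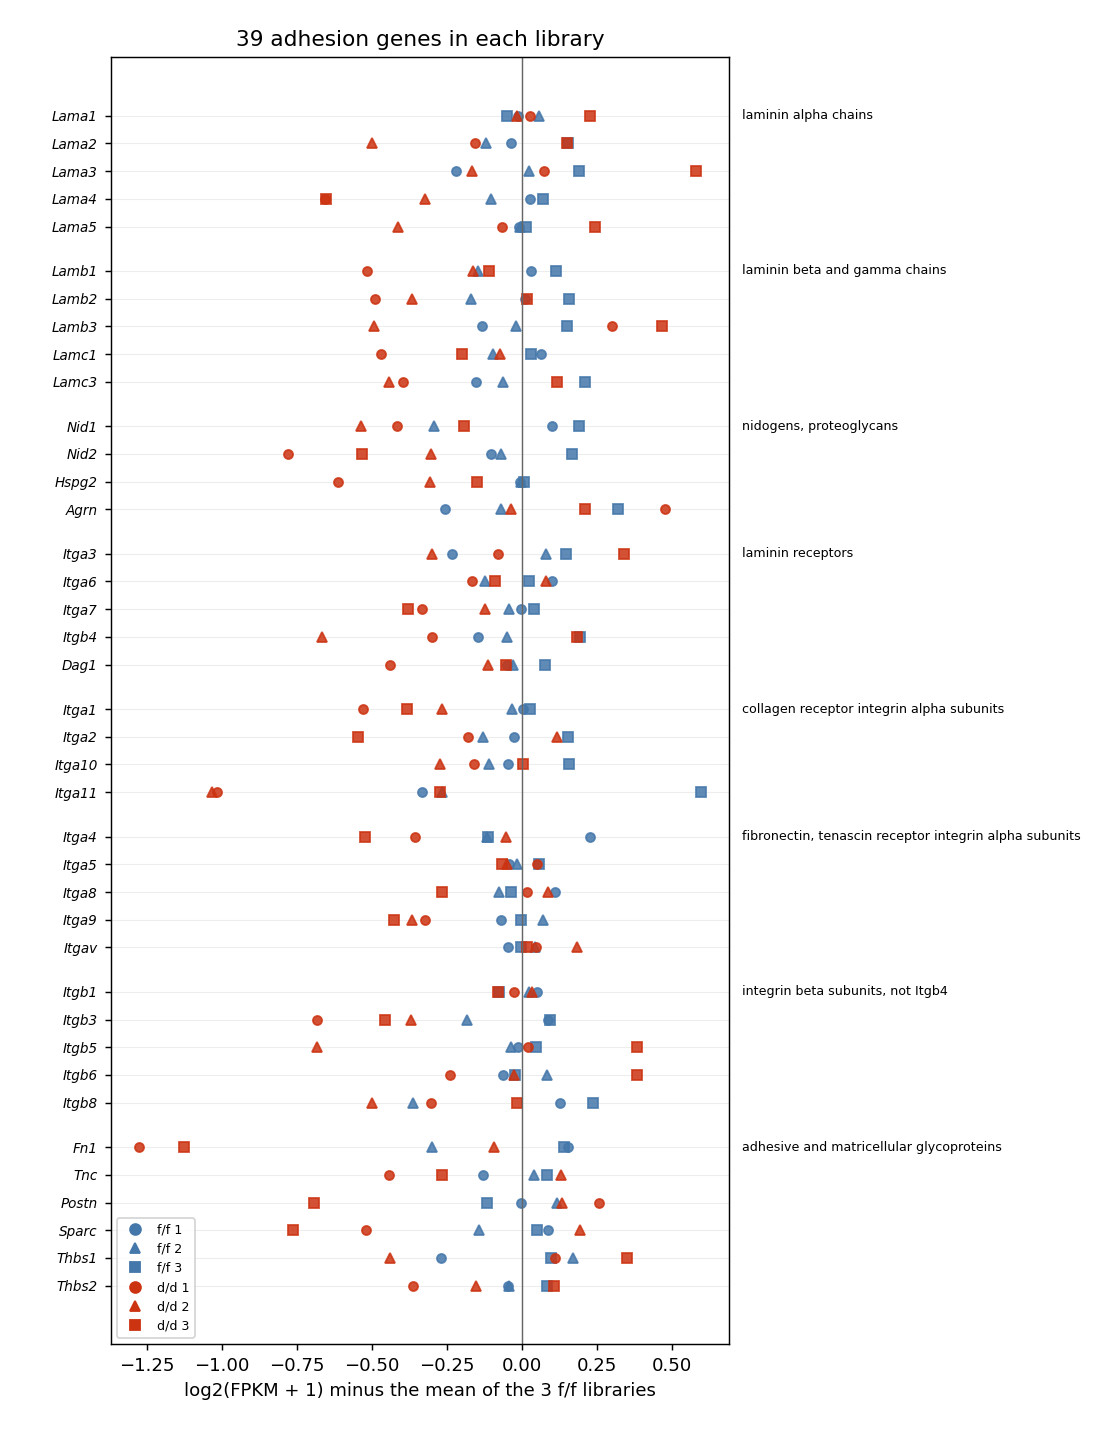
Each row is 1 of the 39 genes, and the x axis is log2(FPKM + 1) in a library minus the mean of the 3 f/f libraries. Blue symbols are f/f and red symbols d/d libraries, with shape giving the replicate number. Most red symbols lie left of 0, and the d/d replicates scatter more widely than the controls, with Fn1 in d/d replicates 1 and 3 farthest to the left.

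Medians of endothelial and stromal markers were lower in d/d libraries as well, with d/d replicate 3 near the controls. The median of 11 endothelial markers was at 0.02, -0.07 and 0.04 log2 units in f/f replicates 1, 2 and 3 and at -0.34, -0.21 and -0.07 in the d/d replicates. The median of 11 stromal markers was at 0.04, -0.05 and 0.06 in f/f and at -0.35, -0.27 and -0.09 in d/d libraries. The tested members had medians of -0.32, -0.27 and -0.09 in the same libraries, so by these medians the order of the 3 d/d libraries was the same in all 3 lists. Endothelial markers summed to 365.3 to 412.4 FPKM in f/f and 335.1 to 372.2 FPKM in d/d libraries, with none at 0. Of the 11 markers, 10 were lower on average, against 43.4% of all tested genes, and 3 were separated downward, against 4.6%. Stromal markers summed to 1754 to 1932 FPKM in f/f libraries and to 1738, 1409 and 1799 FPKM in d/d replicates 1, 2 and 3. Again 10 of 11 were lower on average (43.4% of all tested genes), and 2 of 11 were separated downward (4.6%). Both sums overlapped between genotypes. By the stromal sum d/d replicate 2 was the lowest, where Dcn, the decorin gene and the largest part of the sum, stood at 645.7 FPKM against 1160 and 1197 FPKM in the other d/d libraries. The 10 smooth muscle markers had a median change of -0.03 on the log2 scale, and the 13 epithelial markers one of 0.10. For 4 of the 13 epithelial markers every d/d library lay above every control, against 6.12% of all tested genes separated upward. Lower on average were 4 of 13, against 43.4% of all tested genes. In bulk tissue, fewer cells of a type and less RNA per cell cannot be told apart. The part of endothelial, stromal and epithelial markers in the member values was not tested.

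**Figure D2:**
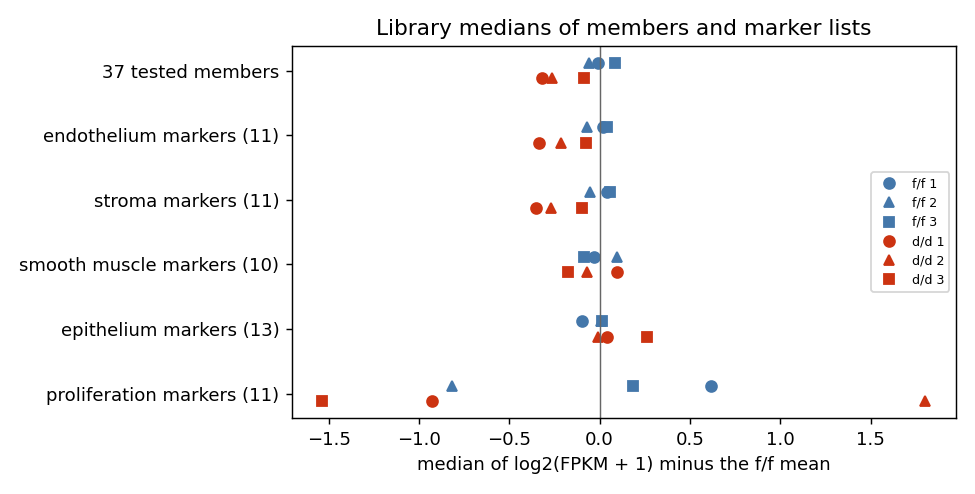
The x axis is the median, over the genes of a list, of log2(FPKM + 1) minus the f/f mean, with 1 symbol per library and the number of genes in brackets. The members, the endothelial markers and the stromal markers show the same order of d/d libraries, replicate 1 lowest and replicate 3 highest, whereas the proliferation markers are highest in d/d replicate 2.

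Among the laminin alpha chains, Lama4, the chain of vascular and mesenchymal basement membranes, was the one that separated the genotypes. It lies at chr10:38965515-39110188 on the plus strand (mm10, GENCODE M21). Its levels were 43.5, 39.6 and 44.8 FPKM in f/f replicates 1, 2 and 3 and 26.6, 33.9 and 26.7 FPKM in the d/d replicates. All 3 d/d libraries lay below the controls, and d/d replicate 2 lay nearest to them. The mean was 42.6 ± 2.7 FPKM in f/f and 29.1 ± 4.15 FPKM in d/d (SD, n = 3 each), 68.2% of control, with a limma log2 change of -0.54 (SE 0.13, unadjusted p = 0.0033, adjusted p = 0.923). The muscle and stromal chain Lama2 stood at 24.0 ± 2.46 FPKM in f/f and 21.6 ± 5.04 FPKM in d/d, the broadly epithelial and vascular chain Lama5 at 28.0 ± 0.259 and 27.0 ± 6.29 FPKM, and the epithelial chain Lama3 at 19.4 ± 2.86 and 22.2 ± 6.34 FPKM. Their ranges overlapped between genotypes.

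The makeup of the alpha chain pool, taken as each chain's share of the summed alpha chain FPKM, was also set out by library. Lama4 held 39.1%, 36.2% and 36.7% of the pool in f/f replicates 1, 2 and 3, and 27.9%, 38.2% and 22.9% in the d/d replicates. It was the largest share in every control, and in d/d replicate 2 it lay within the control range. In d/d replicate 1 it was nearly level with Lama5 at 28.0%, and in d/d replicate 3 it lay below Lama5 at 28.6% and Lama3 at 25.1% and level with Lama2 at 22.9%. Lama3 held 14.7%, 17.9% and 18.1% in f/f and 21.3%, 19.2% and 25.1% in d/d libraries, so its share was higher in every d/d library. In an exact two-sided permutation test on 3 against 3 libraries the Lama3 share gave p = 0.1, the smallest this design allows, and 0.313 after Benjamini-Hochberg adjustment over the 47 ratios and shares examined, which were chosen after values had been seen. Of these 47 quantities, 15 did not overlap between genotypes. Summed alpha chains ranged from 109.4 to 122.2 FPKM in f/f and from 88.6 to 116.6 FPKM in d/d libraries, which overlapped.

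**Figure D3:**
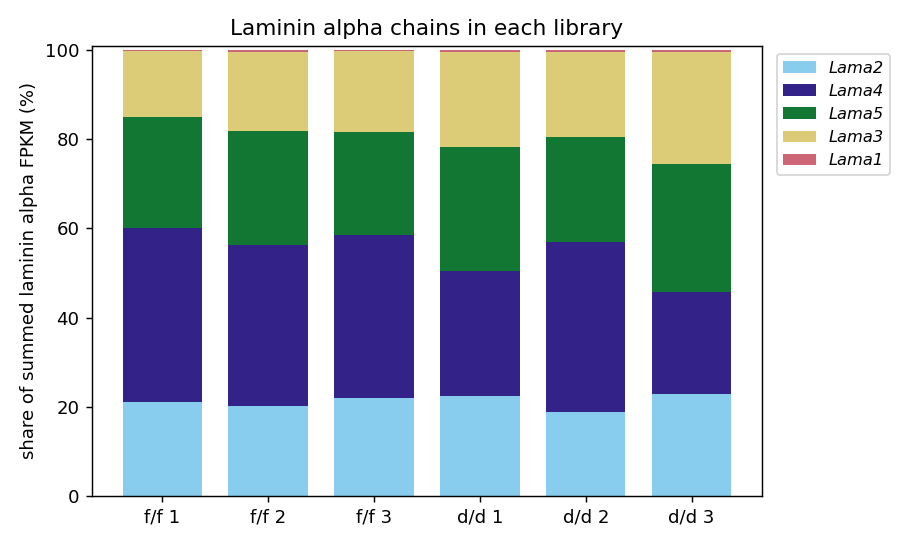
Stacked bars give the share of summed laminin alpha chain FPKM held by each chain, in percent, in each of the 6 libraries. The Lama3 segment is 14.7% to 18.1% in f/f and 19.2% to 25.1% in d/d libraries, and the Lama4 segment is smallest in d/d replicates 1 and 3.

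No beta or gamma chain was separated by genotype. Lamc1, the gamma chain of most laminins (chr1:153218922-153332786, minus strand), stood at 80.3, 71.8 and 78.5 FPKM in f/f replicates 1, 2 and 3 and at 55.2, 73.0 and 66.8 FPKM in the d/d replicates. Only d/d replicate 2 reached into the control range. The d/d mean was 84.6% of control (limma log2 change -0.25, SE 0.13, adjusted p = 0.923), and without d/d replicate 1 the change was -0.13. Without d/d replicate 2 it was -0.33 (limma unadjusted p = 0.0234, adjusted p = 0.2895). Means of Lamb1 and Lamb2, the common beta chains, were 51.9 ± 4.79 and 66.4 ± 7.62 FPKM in f/f and 43.4 ± 6.49 and 55.0 ± 10.6 FPKM in d/d. Lamc3, a gamma chain of narrower distribution, had 9.11 ± 1.36 and 7.65 ± 1.96 FPKM. Lamb3, the beta chain that joins the Lama3 product in epithelial laminin, had 12.6 ± 1.37 and 14.0 ± 4.79 FPKM. It overlaps G0s2 and Hsd11b1 on the other strand, and strand use in counting is not given in the sources used here. The median log2 change of the 5 chains was -0.25, or -0.13 without d/d replicate 1, with 4 lower and 1 higher on average. For the 4 tested alpha chains it was -0.12, which turned to 0.045 without d/d replicate 2. Summed gamma chains, however, were 88.3, 80.5 and 89.1 FPKM in f/f and 61.9, 79.4 and 76.7 FPKM in d/d libraries, with all d/d sums below the controls.

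Of the 4 nidogens and proteoglycans 3 had lower means in d/d, and the median log2 change was -0.37 with all libraries and -0.34 without d/d replicate 2. Nid2 (chr14:19751265-19811787, plus strand), which links laminin to collagen IV, stood at 36.5, 37.4 and 44.3 FPKM in f/f and at 22.5, 31.7 and 26.9 FPKM in d/d replicates 1, 2 and 3. The d/d libraries were all below the controls, and the mean was 68.5% of control (limma log2 change -0.54, SE 0.15, unadjusted p = 0.00795, adjusted p = 0.923). Its more abundant relative Nid1 (chr13:13437551-13512269, plus strand) had 171.8, 130.4 and 182.7 FPKM in f/f and 119.7, 110.0 and 139.8 FPKM in d/d libraries. Here d/d replicate 3 lay above f/f replicate 2, so the genotypes overlapped, with a d/d mean at 76.2% of control (log2 change -0.38, SE 0.16, limma unadjusted p = 0.0479, adjusted p = 0.923). Hspg2, which encodes perlecan, the heparan sulfate proteoglycan of basement membranes (chr4:137468769-137570630, plus strand), was nearly constant in controls at 70.8, 71.0 and 71.5 FPKM and read 46.2, 57.3 and 64.1 FPKM in d/d replicates 1, 2 and 3. All d/d libraries were lower, by amounts that differed among themselves far more than the controls did. The SD was 0.364 FPKM in f/f and 9.03 FPKM in d/d. With all libraries limma gave a log2 change of -0.36 (SE 0.14, unadjusted p = 0.0324, adjusted p = 0.923), and -0.23 without d/d replicate 1. Agrn, the proteoglycan agrin that binds dystroglycan, was the member with the highest log2 change, at 43.9 ± 9.39 FPKM in f/f and 51.01 ± 9.25 FPKM in d/d, and its ranges overlapped.

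Of the 5 laminin receptors, Itga7 and Dag1 were separated by genotype. Itga7, whose integrin with Itgb1 binds laminin in muscle (chr10:128933818-128958282, plus strand), had 11.1, 10.8 and 11.5 FPKM in f/f and 8.66, 10.2 and 8.33 FPKM in d/d replicates 1, 2 and 3. The d/d libraries were below all controls, with a mean at 81.2% of control (limma log2 change -0.28, SE 0.11, unadjusted p = 0.0422, adjusted p = 0.923). The gene overlaps Mettl7b on the opposite strand. Dag1 encodes dystroglycan, which binds laminin globular domains through its sugar chains and the dystrophin complex through its beta subunit (chr9:108204634-108263958, minus strand). It stood at 56.0, 56.8 and 61.1 FPKM in f/f and at 42.4, 53.5 and 55.9 FPKM in d/d libraries. The separation was narrow, with d/d replicate 3 just under f/f replicate 1, and the log2 change of -0.20 (SE 0.13, limma unadjusted p = 0.165, adjusted p = 0.924) was -0.08 without d/d replicate 1. Itga3 and Itga6, the alpha subunits of the main epithelial laminin receptors, stood at 18.0 ± 2.59 and 18.2 ± 1.49 FPKM in f/f and at 18.1 ± 4.42 and 17.4 ± 1.62 FPKM in d/d. Itgb4, the hemidesmosome partner of Itga6, had 20.0 ± 2.61 and 17.0 ± 5.38 FPKM. All 3 overlapped between genotypes.

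Of the collagen receptor alpha subunits, Itga1, which with Itgb1 binds collagen IV (chr13:114953096-115101964, minus strand), was the highest in level. It read 14.2, 13.8 and 14.4 FPKM in f/f replicates 1, 2 and 3 and 9.49, 11.6 and 10.6 FPKM in the d/d replicates. The narrow control range lay wholly above the d/d range, and the d/d mean was 74.7% of control (limma log2 change -0.39, SE 0.11, unadjusted p = 0.00831, adjusted p = 0.923). Its locus contains Pelo on the same strand, so reads of the 2 genes could be shared in counting. Itga11, a receptor for fibrillar collagen, was low and uneven, with 1.95, 2.1 and 4.63 FPKM in f/f and 0.841, 0.818 and 2.08 FPKM in d/d libraries. Its d/d replicate 3 overlapped the controls, and the log2 change was -0.77 (SE 0.32, limma unadjusted p = 0.0425, adjusted p = 0.923). The median of the 4 collagen receptors was -0.30, or -0.41 without d/d replicate 2. Itga2 and Itga10, the other collagen receptors, had log2 changes of -0.20 and -0.14 at levels of at most 2.93 FPKM, with overlapping ranges.

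Among the alpha subunits that bind fibronectin, vitronectin or tenascin, Itga9 was the one separated by genotype. Itga9, part of a receptor for tenascin C (chr9:118606690-118901003, plus strand), had 13.2, 14.7 and 13.9 FPKM in f/f and 10.96, 10.6 and 10.1 FPKM in d/d replicates 1, 2 and 3. Both genotypes were tight and did not overlap, with a d/d mean at 75.7% of control (limma log2 change -0.37, SE 0.10, unadjusted p = 0.00728, adjusted p = 0.923). Itga5, the alpha subunit of the classical fibronectin receptor and the most abundant of the 5 (chr15:103344286-103366763, minus strand), had 23.1, 23.5 and 24.8 FPKM in f/f and 24.7, 23.0 and 22.7 FPKM in d/d libraries. The ranges overlapped, with a log2 change of -0.02 (SE 0.10, limma adjusted p = 0.991). Itgav, the vitronectin receptor subunit, ranged from 13.1 to 14.0 FPKM in f/f and from 13.7 to 15.5 FPKM in d/d. Itga4, which binds fibronectin and VCAM1 and overlaps Cerkl on the other strand, had a log2 change of -0.31, and Itga8, a receptor subunit of mesenchymal cells that binds nephronectin, one of -0.05. Neither was separated.

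Of the beta subunits, the abundant Itgb1 overlapped between genotypes and the scarcer Itgb3 did not. Itgb1, the partner of most alpha subunits above (chr8:128685654-128733200, plus strand), stood at 187.9, 184.6 and 172.0 FPKM in f/f and at 178.4, 185.8 and 171.5 FPKM in d/d libraries. The d/d mean was 98.4% of control, with a limma log2 change of -0.02 (SE 0.10, adjusted p = 0.989). Itgb3, which pairs with Itgav in vessels and stroma and with Itga2b in platelets (chr11:104608000-104670476, plus strand), had 7.94, 6.42 and 7.98 FPKM in f/f and 4.25, 5.52 and 5.14 FPKM in d/d replicates 1, 2 and 3. All d/d libraries were below the controls, at a mean of 66.7% of control (limma log2 change -0.50, SE 0.14, unadjusted p = 0.00821, adjusted p = 0.923). Platelet and megakaryocyte markers summed to 13.9 to 19.1 FPKM in f/f and 6.12 to 20.97 FPKM in d/d libraries, with Ppbp, Gp9, Gp5 and Gp6 at 0 in at least 1 library. Their part in the Itgb3 values was not tested. Itgb5 and Itgb8, further partners of Itgav, had log2 changes of -0.09 and -0.27 with overlapping ranges. Itgb5 was spread widely in the deleted uteri, at 80.3, 48.9 and 103.6 FPKM, against 77.2 to 81.8 FPKM in the controls.

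**Figure D4:**
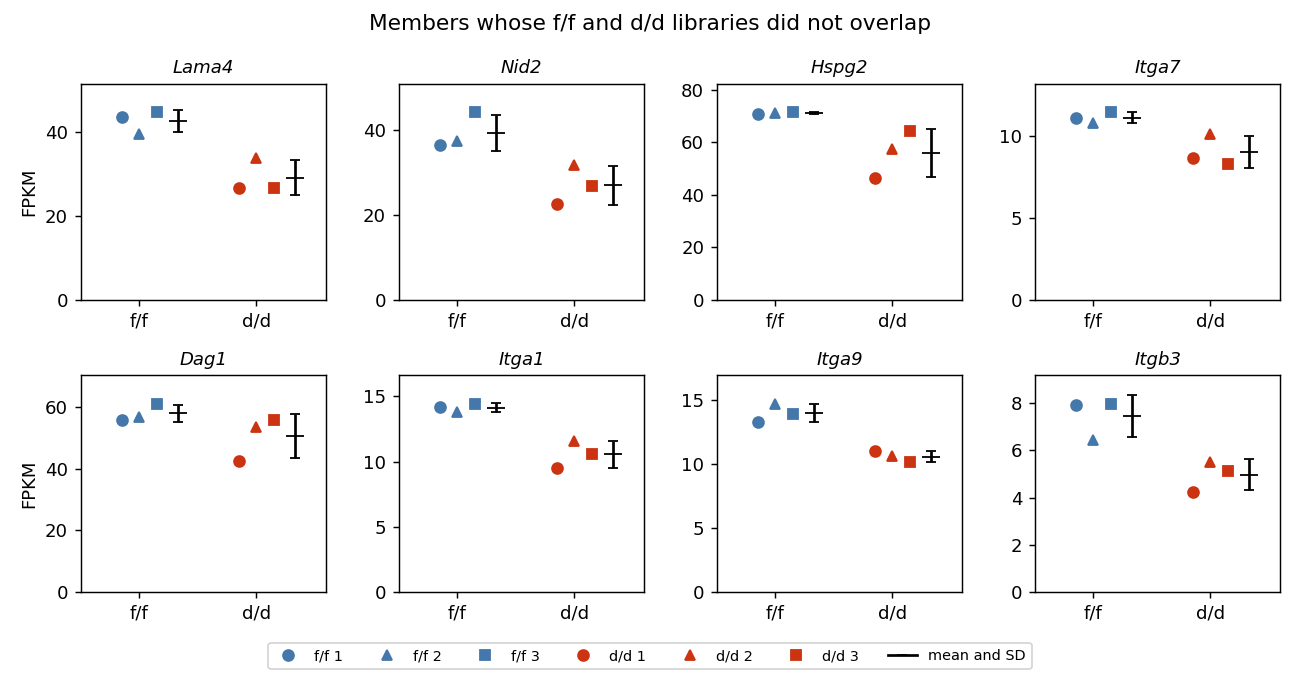
The 8 members whose genotypes did not overlap are shown in FPKM on axes that start at 0, with 1 symbol per library and the mean and SD of 3 libraries beside them. Itga1 and Itga9 have a clear gap between genotypes, whereas in Dag1 d/d replicate 3 at 55.9 FPKM lies just under f/f replicate 1 at 56.0 FPKM.

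Subunit ratios within a library restate the member values above and are given as proportions. The log2 ratio of Itga1 to Itgb1 averaged -3.68 in f/f and -4.08 in d/d, and that of Itga9 to Itgb1 averaged -3.70 and -4.08, in both cases without overlap. The log2 ratio of Itgb3 to its partner Itgav was -0.72, -1.12 and -0.76 in f/f and -1.72, -1.49 and -1.42 in d/d libraries, again without overlap. The sum of the 12 integrin alpha subunits was 124.4, 125.5 and 133.7 FPKM in f/f and 112.3, 117.3 and 116.6 FPKM in d/d. Within that sum Itga1 and Itga9 took 11.1% and 10.9% on average in f/f and 9.14% and 9.15% in d/d, while Itga5 took 18.6% and 20.4% and Itgav 10.6% and 12.5%. Each of these 4 shares separated the genotypes. When the 8 separated members were instead divided by the summed endothelial markers, 4 of 8 still did not overlap (Lama4, Hspg2, Itga1 and Itgb3), and divided by the summed stromal markers 0 of 8 remained separated. Both counts turned on d/d replicate 2, without which 6 of 8 members lay below the controls over endothelial markers and 7 of 8, all but Dag1, over stromal markers. With fewer libraries separation is easier, and these 8 members had been chosen as separated. Undivided values of 31.8% of all tested genes were separated without d/d replicate 2, against 10.7% with all libraries. The same share for ratios was not computed. The mean log2 differences of these ratios, d/d minus f/f, ran from -0.41 for Itgb3 to -0.03 for Dag1 over endothelial markers, with -0.38 for Nid2, which overlapped, and -0.19 for Hspg2, which did not. Over stromal markers they ran from -0.40 for Itgb3 to -0.02 for Dag1, with -0.38 for Lama4 and -0.37 for Nid2, and d/d replicate 2, whose stromal sum was lowest, had the highest ratio among d/d libraries in all 8. Each separation of 3 against 3 libraries listed here has an exact two-sided permutation p of 0.1, or 0.313 after Benjamini-Hochberg adjustment over the 47 quantities.

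No adhesive glycoprotein was separated by genotype, and d/d replicate 2 often lay apart from the other deleted uteri. Fn1 encodes fibronectin, the main ligand of the Itga5 receptor (chr1:71585520-71653200, minus strand). Its levels were 190.9, 139.2 and 189.0 FPKM in f/f and 70.1, 160.8 and 77.9 FPKM in d/d replicates 1, 2 and 3. Replicates 1 and 3 of d/d were far below all controls, and d/d replicate 2 lay inside the control range. The mean was 173.0 ± 29.3 FPKM in f/f and 102.9 ± 50.3 FPKM in d/d, 59.5% of control (limma log2 change -0.83, SE 0.31, unadjusted p = 0.0288, adjusted p = 0.923). Without d/d replicate 2 the log2 change was -1.20 (limma adjusted p = 0.054), and without d/d replicate 1 it was -0.61. Sparc, a collagen-binding matricellular protein and the most abundant member (chr11:55394500-55423183, minus strand), had the same pattern with 1408, 1201 and 1372 FPKM in f/f and 923.9, 1514 and 780.7 FPKM in d/d libraries. Its d/d replicate 2 exceeded every control, and limma gave a log2 change of -0.36 (SE 0.24, adjusted p = 0.924) with all libraries, -0.64 without d/d replicate 2 and -0.16 without d/d replicate 3. Tenascin C (Tnc), a ligand of the Itga9 receptor, again had its highest value in d/d replicate 2, at 8.46 FPKM against 6.9 to 8.16 FPKM in controls and 5.35 and 6.19 FPKM in the other d/d libraries. Postn, which encodes periostin, had 170.6, 156.5 and 87.9 FPKM in d/d libraries and 131.7 to 154.7 FPKM in controls. The thrombospondins Thbs1 and Thbs2, matricellular regulators of adhesion and vessel growth, had log2 changes of 0.01 and -0.14 with overlapping ranges. The library with high Fn1, Sparc and Tnc among the deleted uteri was also the highest of the 3 in proliferation markers. It was highest too in summed oviduct and ciliated cell markers (157.1, 294.4 and 145.4 FPKM in d/d replicates 1, 2 and 3). Among the stromal markers it was highest in Lum (114.5, 231.2 and 88.97 FPKM), Col6a3 (43.9, 78.1 and 36.5 FPKM), Dpt and Vcan. It was lowest of the 3 in Pdgfra, Pdgfrb, Dcn, Mfap5, Hoxa11 and Dpp4, and in the summed stromal markers. The part of these markers in the member values was not tested.

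**Figure D5:**
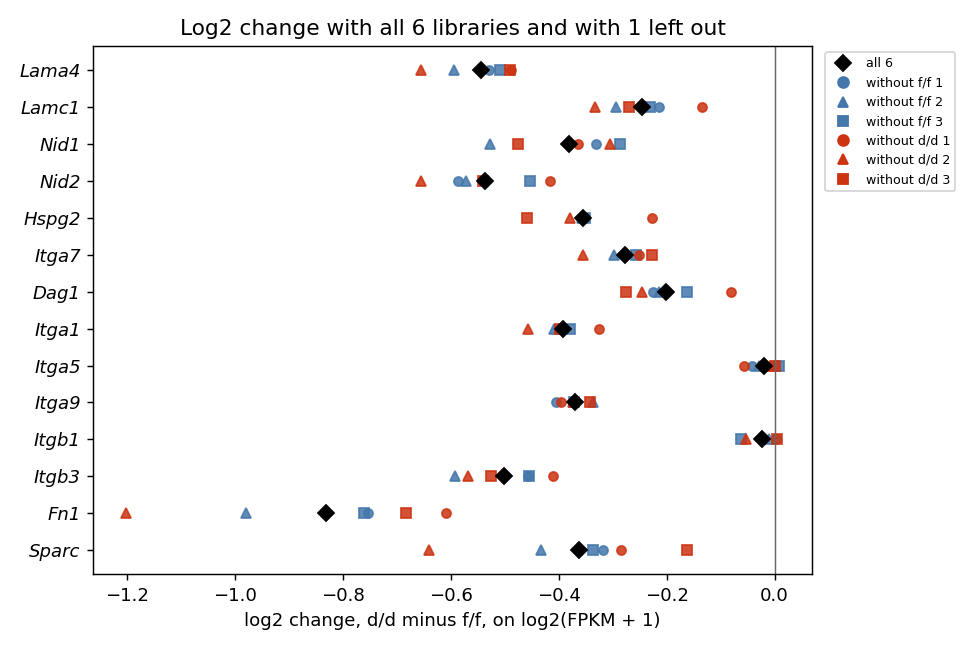
For 14 named members the x axis is the log2 change, d/d minus f/f, on the log2(FPKM + 1) scale, with all 6 libraries (diamond) and with each library left out (other symbols). Fn1 moves most, from -0.61 without d/d replicate 1 to -1.20 without d/d replicate 2, while Itga9 stays between -0.40 and -0.34.

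Across all 39 members, d/d replicate 1 lay below every control in 26, d/d replicate 2 in 24 and d/d replicate 3 in 18. Among all tested genes the shares for the same 3 libraries were 31.9%, 33.1% and 25.5%. The same libraries lay above every control in 4, 4 and 9 members, against 34.2%, 38.4% and 34.0% of all tested genes. In 10 members replicates 1 and 2 lay below all controls and replicate 3 did not, among them Lama2, Lamb1, Lamb2, Nid1 and Itgb4, a pattern found in 10% of all tested genes. In 6 members replicates 1 and 3 lay below and replicate 2 did not, namely Lamc1, Itga2, Itga4, Fn1, Tnc and Sparc, against 9.79% of all tested genes. In 5 members, Lama5, Lamb3, Itga3, Itgb5 and Thbs1, d/d replicate 3 was the highest and d/d replicate 2 the lowest of all 6 libraries, close to the 12.3% of all tested genes with that order. Epithelial markers summed to 1015, 898.4 and 1209 FPKM in d/d replicates 1, 2 and 3 and to 931.1 to 1006 FPKM in controls. Their medians were 0.04, -0.01 and 0.26 log2 units in the d/d libraries, and the lowest median, -0.10, was that of f/f replicate 1. The SD of log2(FPKM + 1) was larger in d/d than in f/f for 30 of 37 tested members (81.1%), with a median ratio of 1.90, against 73.9% and a median ratio of 1.73 for all tested genes.

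Promoter stretches of separated and of steady members are set side by side as a description, and their part in the levels was not tested. Of the 39 members, 27 had an entry in the RefSeq promoter table (GRCm38.p6, 34 start sites). The first 3 sequences belong to members whose d/d libraries all lay below the controls, and the last 2 to the steady members Itgb1 and Itga5. Of the 8 separated members 4 had an entry, and Lama4, Nid2, Itga7 and Itgb3 did not. The entry of Itga9, the fourth, starts 105002 bases inside the annotated gene and holds no GC box, and it is not shown. Each runs 5′ to 3′ on the gene's strand over the 100 bases that end 51 bases before the RefSeq start, which can differ from the GENCODE gene start given above, and capitals mark a GC box, the letters GGGCGG or their reverse complement CCGCCC, which is the core of sites bound by Sp1 family factors. The stretches are chr13:115102015-115102114 (minus strand) for Itga1, chr4:137468653-137468752 (plus) for Hspg2, chr9:108264009-108264108 (minus) for Dag1, chr8:128685504-128685603 (plus) for Itgb1 and chr15:103366842-103366941 (minus) for Itga5. Dag1 had 2 windows, and the stretch of the first listed is shown.
Itga1: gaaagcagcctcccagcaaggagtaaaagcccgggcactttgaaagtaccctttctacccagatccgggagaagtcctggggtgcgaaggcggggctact
Hspg2: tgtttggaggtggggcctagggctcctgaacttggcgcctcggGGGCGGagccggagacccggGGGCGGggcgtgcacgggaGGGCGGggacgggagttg
Dag1: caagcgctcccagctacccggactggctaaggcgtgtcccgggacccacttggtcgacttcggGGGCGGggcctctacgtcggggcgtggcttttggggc
Itgb1: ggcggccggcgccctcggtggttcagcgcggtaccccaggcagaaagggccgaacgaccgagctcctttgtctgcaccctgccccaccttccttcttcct
Itga5: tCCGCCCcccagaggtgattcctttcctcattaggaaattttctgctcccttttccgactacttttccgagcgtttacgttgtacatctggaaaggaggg
The Hspg2 stretch holds 3 GC boxes, those of Dag1 and Itga5 hold 1 each, and those of Itga1 and Itgb1 hold none, so the box occurs in both kinds of member. Over all 32851 windows of the table, 18.8% hold a GC box in this stretch, and 29.4% of the member windows do. Member windows were richer in G and C there, with a median of 61.5% against 53.0% for all windows. Over the whole 250 bases before the start, GGGCGG was found in 16 of 34 member windows (47.1%, against 32.7% of all windows), the TATA box TATAAA in 11.8% (12.4%), CCAAT in 20.6% (33.8%) and the ETS motif CCGGAAG in 2.94% (6.91%), counting both strands. The AP-1 motif TGANTCA and the E-box CACGTG were found in none of the 34 member windows, against 6.75% and 6.02% of all windows. A match describes the letters of a window and does not show a bound site.

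Genes that work with the members were read from the same fit. Of 26 adaptors and focal adhesion genes, which link integrins to actin, 0 reached an unadjusted p under 0.05 and 21 were lower on average (43.4% of all genes), with a median log2 change of -0.09, or -0.05 without d/d replicate 2. All d/d libraries lay below the controls for 2 of the 26 and above them for 2, against 4.6% and 6.12% of all tested genes. Talin 1 (Tln1), which activates integrins, ranged from 61.0 to 70.1 FPKM in f/f and from 50.02 to 58.9 FPKM in d/d libraries without overlap (log2 change -0.25, limma unadjusted p = 0.0631), and the tensin gene Tns3 had a log2 change of -0.26. The other separated adaptors were Flna lower, at -0.22, and Lims1 and Fermt1 higher, at 0.18 and 0.11. Of 13 dystrophin complex genes, 1 had an unadjusted p under 0.05, near the 4.98% of all genes. It was the syntrophin gene Sntb2 (log2 change -0.43, limma unadjusted p = 0.0475), and the list median was -0.01, or 0.07 without d/d replicate 2, with the sarcoglycan Sgcb at 0.26. Of 9 genes that build the laminin-binding sugars of dystroglycan, 0 reached that p, with a median of -0.07, or -0.13 without d/d replicate 2, and changes of -0.32 for Pomt1 and -0.19 for Pomgnt2. The leukocyte and platelet integrins, with 6 of 8 tested, had none at that p and a median of -0.06, which turned to 0.04 without d/d replicate 2, and Itgb2 and Itgam stood at -0.15 and -0.13.

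Further basement membrane genes included Egfl6, which was higher in the deleted uteri. Of 22 tested, 2 had an unadjusted p under 0.05 with lower and 1 with higher values in d/d, against 4.98% of all tested genes in either direction. Their median log2 change was -0.13, or -0.08 without d/d replicate 2. Egfl6, a basement membrane protein that binds integrin, had 2.87, 2.21 and 3.34 FPKM in f/f and 5.45, 6.98 and 4.61 FPKM in d/d replicates 1, 2 and 3. Every d/d library was higher (log2 change 0.81, SE 0.18, limma unadjusted p = 0.00258, adjusted p = 0.85). Frem2, part of the Fraser complex under epithelia, read 10.4, 9.47 and 9.44 FPKM in f/f and 6.61, 6.68 and 7.68 FPKM in d/d libraries, and every d/d library was lower (log2 change -0.43, limma unadjusted p = 0.00556). The other matricellular glycoproteins resembled the members in direction, with 9 of 9 tested genes lower in mean log2(FPKM + 1) (43.4% of all genes). Of them 5 had an unadjusted limma p under 0.05 (4.98% of all genes), and the median was -0.32. By mean FPKM, however, Tgfbi was higher in d/d, at 570.8 FPKM against 549.1 FPKM in f/f (log2 change -0.06). The list held 23 symbols, counting older and newer names of the same gene, of which 13 were in the tables and 9 passed the filter. Fibulin 1 (Fbln1), which binds fibronectin and nidogen, had 120.1, 145.3 and 179.9 FPKM in f/f and 100.9, 99.2 and 100.4 FPKM in d/d libraries. The d/d values were nearly equal and all below the controls (log2 change -0.54, limma unadjusted p = 0.00865), and Fbln2 had a log2 change of -0.47 (limma unadjusted p = 0.0264). None of these genes passed the adjusted threshold.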

How the data were processed

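Reads were aligned with HISAT2 2.2.1 and quantified with Cufflinks 2.2.1 on mm10, per the submitters' processing notes. The deposited tables hold 1 value per gene and library, taken as FPKM from the tool named and the values, since the tables name no unit. RNA was extracted with TRIzol and libraries made with a TruSeq kit, per the labels' protocols. Groups and replicate numbers came from sample titles. Genes at 1 FPKM or more in at least 3 of 6 libraries (12640 of 20637) were tested on log2(FPKM + 1) with limma 3.58.1 in R 4.3.3 (trended eBayes, two-sided, Benjamini-Hochberg, threshold 0.05), after the script was tested on simulated data. Other sums used Python 3.11.15, pandas 2.3.3, numpy 2.4.6 and scipy 1.17.1. No 2 libraries held identical values.

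Members and lists were chosen with earlier results of these data known. Values in every library were given for members whose genotypes did not overlap, for the member with the smallest p and the most abundant member of each of 8 role groups, and for Nat10. From each companion list the 2 genes with the smallest p were named. Other genes singled out, all ratios and the promoter stretches were chosen after values were seen. Gene coordinates are from GENCODE M21. Protein sequences were not analysed here. Alternatives covered scaling, filter, pseudocount, variance model, library weights, a replicate block and leaving out each library.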

Additional observations from a re-analysis of the deposited data

How the results depend on the processing

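With array quality weights, which gave d/d replicate 1 a weight of 3.74 and d/d replicate 2 one of 0.224, limma called 316 genes and 6 members, all lower in d/d (Lama4, Nid2, Hspg2, Itga1, Itgb3 and Fn1, adjusted p of 0.0386 to 0.0436). In that fit 21 members had an unadjusted p under 0.05 (29.5% of all tested genes), the member median was -0.31, and Itga5 turned to 0.042. In the other 15 settings 0 members were called, and their median ranged from -0.27 to -0.15. Leaving out 1 library at a time gave 0 to 12 called genes (12 without d/d replicate 2), 5 to 13 members at an unadjusted p under 0.05, and 9 to 20 members without overlap, as fewer libraries have to separate. Of the 8 separated members, Dag1 overlapped under quantile normalization, and 7 of 8 stayed separated. Over the same omissions the laminin alpha median ranged from -0.28 to 0.045 (positive without d/d replicate 2), that of the fibronectin and tenascin receptor alphas from -0.12 to 0.0015 (positive without d/d replicate 3), Itga5 from -0.056 to 0.0089 and Itgb1 from -0.061 to 0.0051. Same-numbered libraries did not deviate together (r of -0.34, -0.03 and 0.10 over genes), so the numbers were not taken as pairs. With the replicate block 0 genes were called and 8 members, against 10, had an unadjusted p under 0.05 (5.74% of all genes, against 4.98%). With 3 libraries per genotype and no counts, small differences and low genes such as Itga11 were not resolved.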
